A study of Mus musculus with 7 samples.

Results

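The 10 genes described here mark supporting cells of the cochlea and were followed in Brg1 knockout and control cochlear epithelium: S100a1, Npy, Emid1, Lgr5, Lgr6, Slc1a3, Sparcl1, Rorb, Igfbpl1 and Matn4. The 10 members were taken by gene name from a table of 54532 genes, and all 10 were detected in every library and passed the filter on low counts. The data were 7 mouse RNA-seq libraries of cochlear epithelium at embryonic day 16, 4 labelled Brg1 knockout and 3 labelled control, all untreated. Smarca4 encodes Brg1, the motor subunit of the BAF complex, which moves nucleosomes, and the study concerns the part that Brg1 plays while the hearing epithelium takes shape and matures. The sources used here do not give the strain, the Cre driver, the deleted exons, the genotype of the controls or how many embryos went into a library. Whether each replicate is a separate animal is not labelled. The p-values therefore measure the spread between these libraries, which may be technical.

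The organ of Corti is a mosaic of hair cells, which sense sound, and supporting cells, which separate and hold them. Pillar cells form the tunnel between inner and outer hair cells, Deiters cells sit under the outer hair cells, and inner phalangeal and border cells surround the inner hair cells. All of them come from the same prosensory progenitors as hair cells, and Notch signalling from nascent hair cells holds them in the supporting fate. Some of the 10 genes are not limited to these cells. Slc1a3 and Sparcl1 are also made by glia, and Npy is also made by neurons.

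Of the 10 members, 1 fell in the knockout and 0 rose. Igfbpl1 dropped to 38.1% of its control level. Npy and Sparcl1, at 42.8% and 75.3% of the control level, had all 4 knockout libraries below all 3 controls but missed the threshold. The other 7, among them the receptors Lgr5 and Lgr6 and the glutamate transporter Slc1a3, had overlapping groups and fold changes near 0. The threshold was an adjusted p below 0.05 by edgeR's quasi-likelihood test over 17341 genes, which called 4.87% of all tested genes lower and 1.94% higher. By DESeq2, 3 members were called lower and 0 higher, where it called 6.44% of its genes lower. By limma 1 was lower and 0 higher. Of the 17341 genes, limma called 697 lower at a pseudocount of 0.1 FPKM and 800 at 1 FPKM. At an unadjusted p below 0.05, 3 members were lower and 0 higher, where 11.8% of all tested genes were lower. The groups did not overlap, with the knockout lower, in 3 members and in 11.5% of all tested genes. The median log2 fold change was -0.04 over the members and 0.02 over all tested genes.

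Library totals lay between 16098269 and 18872132 counts. The deposited values had been moved before deposit by a constant per gene and batch, as read from the values: knockout replicates 1, 2 and 3 with control replicates 1 and 2 form a batch of 5 libraries, and knockout replicate 4 with control replicate 3 a batch of 2. Smarca4, the targeted gene, averaged 368 ± 10.9 CPM over the 3 controls and 249 ± 23 CPM over the 4 knockouts (SD), with no overlap (CPM are counts scaled to library size with TMM factors; log2 fold change -0.56 ± 0.09 SE; edgeR adjusted p = 0.00338). Of the defining markers of the tissue and of the other cell types looked at, Acan, of cartilage, was the only one at 0 in any library, in control replicate 3. Its deposited values in control replicates 1 and 2 were 84.3 and 89.3 counts. Whether the constant of the smaller batch brought this value to 0 was not tested. The epithelial markers Epcam (344 ± 39.3 CPM in control) and Cdh1 (103 ± 15.8 CPM in control) and the supporting cell regulator Sox2 (106 ± 9.53 CPM in control) were present throughout.

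Promoter sequences show what lies at the start of these genes. RefSeq's table (GRCm38.p6) holds a promoter for 7 of the 10 members, from 250 bases before the start to 50 bases after it: S100a1, Npy, Emid1, Lgr6, Slc1a3, Rorb and Matn4. The letters of 3 motifs tied to supporting cell regulators were searched on both strands: TGGGAA for Rbpj, the DNA-binding partner of Notch, CTTTGA for the Tcf and Lef factors of Wnt signalling, and ACAANG for Sox factors. TGGGAA was held by 25.5% of 27025 promoters, 1 a gene, and by those of Emid1, Lgr6 and Rorb. CTTTGA was held by 16.2% of all promoters and by that of Matn4, at positions -61 and, on the other strand, 19. ACAANG was held by 41.6% of all promoters and by those of Lgr6, Npy and Slc1a3. The last 3 are printed because they share the letters ACAANG and cover a range of fold changes. Npy had one of the lowest, though it was not called, and Lgr6 and Slc1a3 were among the closest to 0. Capitals mark motif matches: ACAAGG at position -33 in Npy, TGGGAA at -201 and ACAATG at -62 in Lgr6, and, on the other strand, CCTTGT at -179 in Slc1a3. Each is given 5′ to 3′ along the gene. The first lies at chr6:49822460-49822759 on the forward strand, the second at chr1:135105227-135105526 and the third at chr15:8710758-8711057, both on the reverse strand.
Npy: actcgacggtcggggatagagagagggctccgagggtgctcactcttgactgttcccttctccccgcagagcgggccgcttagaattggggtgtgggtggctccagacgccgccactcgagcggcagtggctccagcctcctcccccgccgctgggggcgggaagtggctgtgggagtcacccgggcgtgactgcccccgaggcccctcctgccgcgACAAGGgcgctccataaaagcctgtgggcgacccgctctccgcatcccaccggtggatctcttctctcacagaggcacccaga
Lgr6: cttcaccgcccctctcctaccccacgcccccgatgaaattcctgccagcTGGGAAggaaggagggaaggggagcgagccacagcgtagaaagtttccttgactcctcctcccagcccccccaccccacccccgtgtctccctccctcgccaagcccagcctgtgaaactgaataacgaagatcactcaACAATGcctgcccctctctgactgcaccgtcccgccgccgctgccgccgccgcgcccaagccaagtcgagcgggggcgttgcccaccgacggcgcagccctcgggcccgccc
Slc1a3: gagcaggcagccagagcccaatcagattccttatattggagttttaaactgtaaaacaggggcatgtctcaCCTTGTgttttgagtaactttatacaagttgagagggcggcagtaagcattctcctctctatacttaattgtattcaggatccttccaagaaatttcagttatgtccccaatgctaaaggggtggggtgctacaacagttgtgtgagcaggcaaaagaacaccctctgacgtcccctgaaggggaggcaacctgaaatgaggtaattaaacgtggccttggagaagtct
A match is a description of letters, not a site of binding.

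Levels per length placed the 10 genes over a wide range in controls. Compared in FPKM, which divides by gene length, Sparcl1 came first at 183 ± 25.5 (SD, n = 3), above 98.6% of the tested genes. S100a1 (80.6 ± 17.4 FPKM) and Npy (69.9 ± 15.9 FPKM) came next, and their ranges over the control libraries overlapped. Matn4 stood at 34.9 ± 4.53 FPKM, apart from its neighbours. Slc1a3 (21.2 ± 3.17 FPKM) and Emid1 (18.4 ± 2.8 FPKM) overlapped each other, as did Igfbpl1 (7.32 ± 1.8 FPKM) and Lgr5 (5.72 ± 0.238 FPKM). Lgr6 was at 1.39 ± 0.281 FPKM, and Rorb was lowest, at 0.489 ± 0.0615 FPKM, above 11.5% of the tested genes. In the knockout Npy was at 29.9 ± 12 FPKM (SD, n = 4), with a range of 15.4 to 44.1 FPKM that overlapped the 30.9 to 38.4 FPKM of Matn4, and Igfbpl1 at 2.77 ± 0.705 FPKM, where it no longer overlapped Lgr5 (6.19 ± 0.811 FPKM).

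**Figure D1:**
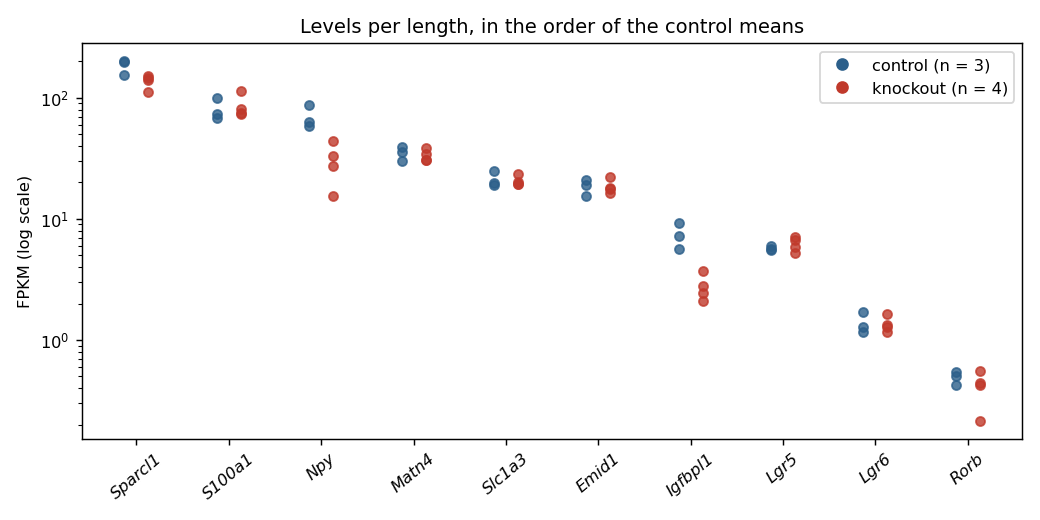
FPKM of each member in each library on a log scale, in the order of the control means, with 3 control (blue) and 4 knockout (red) libraries. The order runs from Sparcl1, at 183 FPKM in control, to Rorb, at 0.489. The knockout points of Sparcl1, Npy and Igfbpl1 lie below their control points.

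Igfbpl1 encodes a secreted protein related to the IGF-binding proteins (ENSMUSG00000035551, chromosome 4, 45809468 to 45826923, mm10, reverse strand). Knockout replicates 1 to 4 read 6.93, 8.18, 12.5 and 9.5 CPM, against 30.2, 18.7 and 24.2 CPM for control replicates 1 to 3. Every knockout library was below the lowest control. The means were 9.28 ± 2.4 CPM (SD, n = 4) and 24.4 ± 5.73 CPM (SD, n = 3), for a log2 fold change of -1.40 ± 0.21 (SE; edgeR adjusted p = 0.00325) and a 95% interval of -1.86 to -0.93. In the batch of 5 libraries, where edgeR called 2.49% of the tested genes lower, Igfbpl1 was the 1 member called (-1.41 ± 0.29; adjusted p = 0.0405). In the batch of 2 the log2 ratio of the knockout to the control library was -1.35. With any 1 library left out, Igfbpl1 stayed called, with a log2 fold change between -1.57 and -1.22. The relatives fixed for comparison were the IGF-binding proteins, proteins related to them, and the IGF ligands and receptor. Of 11 tested, edgeR called Igfbp3 alone, which rose from 81 ± 17.4 to 147 ± 20.4 CPM (log2 fold change 0.86 ± 0.15; edgeR adjusted p = 0.00959), although in the batch of 5 alone it did not pass (0.84; adjusted p = 0.138). DESeq2 called 1 of the 11 higher and 1 lower.

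Npy encodes neuropeptide Y, a secreted peptide (ENSMUSG00000029819, chromosome 6, 49822710 to 49829507, forward strand). The 4 knockout libraries, in replicate order, held 25.4, 15.7, 19.2 and 9.15 CPM, and the 3 controls 33.3, 36.7 and 51.8 CPM. The groups did not overlap. The lowest knockout and the highest control were the 2 libraries of the smaller batch. The means were 17.4 ± 6.8 CPM (SD, n = 4) and 40.6 ± 9.81 CPM (SD, n = 3), with a log2 fold change of -1.22 ± 0.32 (95% interval -1.98 to -0.47; edgeR adjusted p = 0.0715). The batch of 5 libraries alone gave -0.80 ± 0.19 (adjusted p = 0.0544), and the 2 libraries of the smaller batch a log2 ratio of -2.50. Npy passed the threshold without knockout replicate 1 (-1.47; edgeR adjusted p = 0.0244), without knockout replicate 4 (-1.01; adjusted p = 0.0318) and by DESeq2 (-1.23; adjusted p = 0.0211). Among its tested relatives, the peptides and receptors of its family and the peptidase Dpp4, the receptor gene Npy4r was the 1 of 4 called. It fell from 1.1 ± 0.119 to 0.348 ± 0.138 CPM (edgeR adjusted p = 0.0263, and 0.122 in the batch of 5 alone). Its deposited values were low, 4.8 to 8.8 counts in knockout and 18.2 to 21.8 in control. At such counts the constant per gene and batch can change the ratio, so this call is uncertain.

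Sparcl1, a secreted matrix glycoprotein of the SPARC family, was the most abundant member (ENSMUSG00000029309, chromosome 5, 104079111 to 104113733, reverse strand). Its level was 419, 441, 458 and 344 CPM in knockout replicates 1 to 4 and 581, 464 and 610 CPM in control replicates 1 to 3. The groups did not overlap, but control replicate 2 lay close to knockout replicate 3. The means were 415 ± 50.1 CPM (SD, n = 4) and 552 ± 77.4 CPM (SD, n = 3), with a log2 fold change of -0.41 ± 0.12 (95% interval -0.68 to -0.14; edgeR adjusted p = 0.0733). The batch of 5 alone gave -0.25 ± 0.12 (adjusted p = 0.312) and the smaller batch a log2 ratio of -0.83. Without control replicate 2 the gene passed (-0.54; edgeR adjusted p = 0.0362), as it did by DESeq2 (adjusted p = 0.0143). An antisense gene, Gm26703, touches its exons at no more than 24.1 counts in any library, and whether the authors counted by strand is not given in the sources used here.

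**Figure D2:**
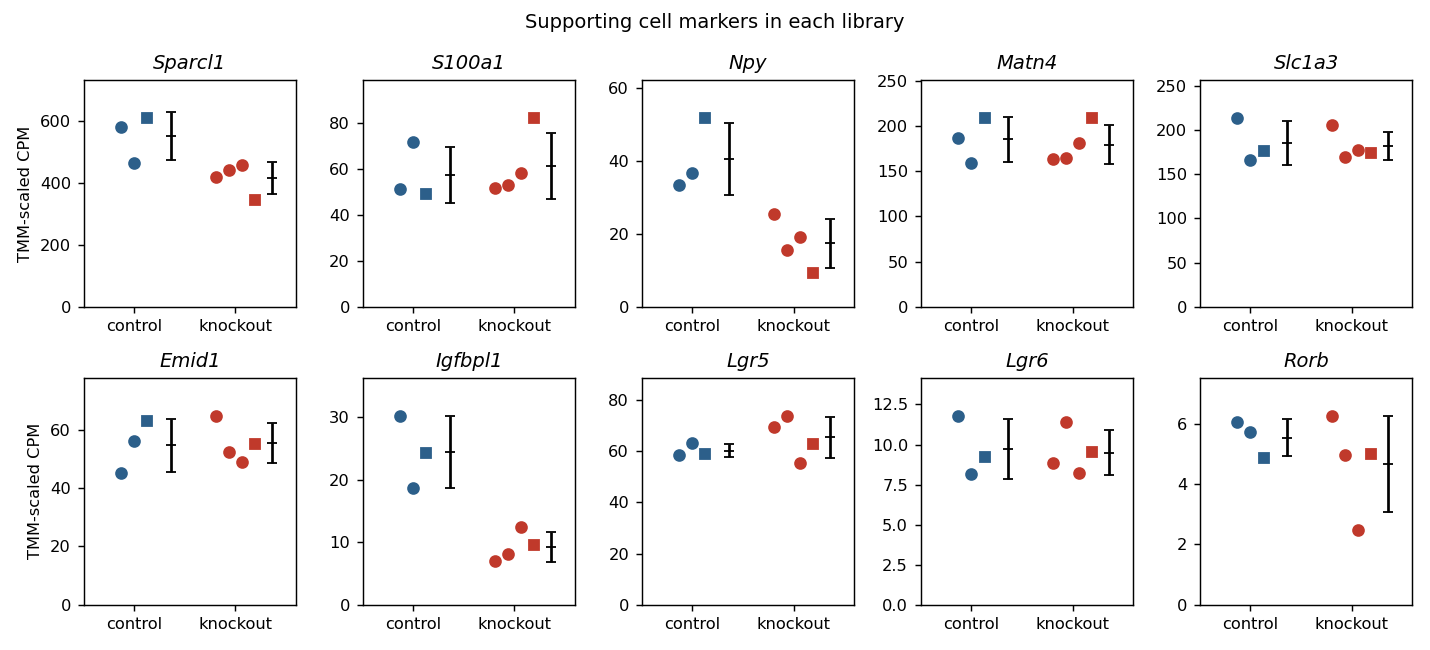
TMM-scaled CPM of each member in each library (blue, control; red, knockout; squares, the 2 libraries of the smaller batch), with the mean and SD in black. Igfbpl1, Npy and Sparcl1 have no knockout point above a control point, and the other 7 genes overlap.

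Matn4 encodes matrilin 4, an adaptor protein of the extracellular matrix (ENSMUSG00000016995, chromosome 2, 164389393 to 164405160, reverse strand). It was at 163, 164, 181 and 209 CPM in knockout and at 187, 159 and 209 CPM in control, and the 2 ranges nearly coincided (log2 fold change -0.05 ± 0.11; 95% interval -0.30 to 0.20; edgeR adjusted p = 0.86). Rbpjl lies on the other strand over some of its exons, at no more than 169.6 counts against at least 2868.1 for Matn4. Emid1, which encodes a secreted protein with an EMI domain (ENSMUSG00000034164, chromosome 11, 5106265 to 5152257, reverse strand), was at 64.8, 52.5, 49 and 55.2 CPM in knockout and at 45.1, 56 and 63.1 CPM in control (0.02 ± 0.13; -0.26 to 0.29; adjusted p = 0.958). The 2 groups spanned the same levels. Of 15 tested relatives of Sparcl1, Matn4 and Emid1, namely the other matrilins, the SPARC family and the EMI domain proteins, 1 rose and 1 fell by edgeR, while DESeq2 called 2 higher and 2 lower. Matn1, the cartilage matrilin, rose from 19 ± 1.56 to 40.6 ± 9.27 CPM (1.10 ± 0.16; edgeR adjusted p = 0.00325). Spock2, a secreted proteoglycan of the SPARC family, fell from 148 ± 5.07 to 101 ± 13.2 CPM (-0.56 ± 0.10; adjusted p = 0.00581). Both also passed in the batch of 5 alone.

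Slc1a3 encodes GLAST, the glutamate transporter with which cells around the inner hair cells take up glutamate (ENSMUSG00000005360, chromosome 15, 8634124 to 8710764, reverse strand). Its level was 206, 170, 178 and 174 CPM in knockout replicates 1 to 4 and 214, 166 and 176 CPM in control replicates 1 to 3. Each group held 1 higher library, replicate 1, and the rest lay close together. The log2 fold change was -0.03 ± 0.10 (95% interval -0.25 to 0.20; edgeR adjusted p = 0.923), that is, a knockout level between 0.84 and 1.15 times the control. Of 6 tested relatives, the other Slc1 transporters and the glutamine synthetase gene Glul, 0 were called by edgeR, and 1 was lower by DESeq2. By limma 0 were called at a pseudocount of 0.1 FPKM and 1 was lower at 1 FPKM. At an unadjusted p below 0.05, 1 of them was higher and 3 lower.

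S100a1, an EF-hand calcium-binding protein (ENSMUSG00000044080, chromosome 3, 90511034 to 90514392, reverse strand), was at 51.8, 52.9, 58 and 82.2 CPM in knockout and at 51.3, 71.5 and 49.2 CPM in control. In each group 1 library stood above the rest, knockout replicate 4 and control replicate 2. The log2 fold change was 0.09 ± 0.19 (95% interval -0.33 to 0.51; edgeR adjusted p = 0.83). The batch of 5 gave -0.18 and the batch of 2 a log2 ratio of 0.74, so the sign differed between batches. Of 9 tested S100 relatives 0 were called by edgeR or limma, while DESeq2 called 1 higher and 1 lower. Unadjusted, 2 had a p below 0.05 on the higher side and 1 on the lower.

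Lgr5 and Lgr6 encode receptors for R-spondins, secreted proteins that strengthen Wnt signalling, and Lgr5 marks the supporting cells that can act as progenitors in the newborn mouse cochlea. Lgr5 (ENSMUSG00000020140, chromosome 10, 115450311 to 115587780, reverse strand) measured 69.6, 73.9, 55.4 and 63 CPM in the knockout libraries and 58.4, 63.1 and 59.1 CPM in the controls. The controls were close together, with a coefficient of variation of 4.22% against 12.3% in the knockout, and lay within the knockout range. The log2 fold change was 0.12 ± 0.10 (95% interval -0.10 to 0.34; edgeR adjusted p = 0.545). Lgr6 (ENSMUSG00000042793, chromosome 1, 134983301 to 135105276, reverse strand) was at 8.84, 11.4, 8.2 and 9.56 CPM in knockout and at 11.8, 8.16 and 9.22 CPM in control (-0.03 ± 0.18; -0.42 to 0.35; adjusted p = 0.948). Its groups overlapped throughout. In the rest of the R-spondin list, which held Lgr4, the R-spondins, the ligases Rnf43 and Znrf3, the coreceptors Lrp5 and Lrp6 and the Wnt target Axin2, 0 of 9 tested genes were called by edgeR, DESeq2 or limma, or at an unadjusted p below 0.05. The median log2 fold change of these 9 was 0.09.

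Rorb encodes a nuclear receptor of the ROR family (ENSMUSG00000036192, chromosome 19, 18930605 to 19111196, reverse strand). It was at 6.27, 4.97, 2.47 and 4.99 CPM in knockout and at 6.06, 5.72 and 4.86 CPM in control. Knockout replicate 3, with 39.9 counts against 84.1 to 115.9 in the other libraries, was the lowest, and the other 3 knockout libraries lay in or near the control range. The log2 fold change was -0.24 ± 0.27 with the widest interval of the 7 overlapping members (-0.83 to 0.35; edgeR adjusted p = 0.667). That interval spans a knockout level between 0.56 and 1.27 times the control. Of 5 tested genes set beside it, Rora and genes of the clock, Dbp, a clock output factor, rose from 16.4 ± 1.03 to 22.5 ± 2.2 CPM (0.46 ± 0.12; adjusted p = 0.0399; in the batch of 5 alone adjusted p = 0.144) and none fell.

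**Figure D3:**
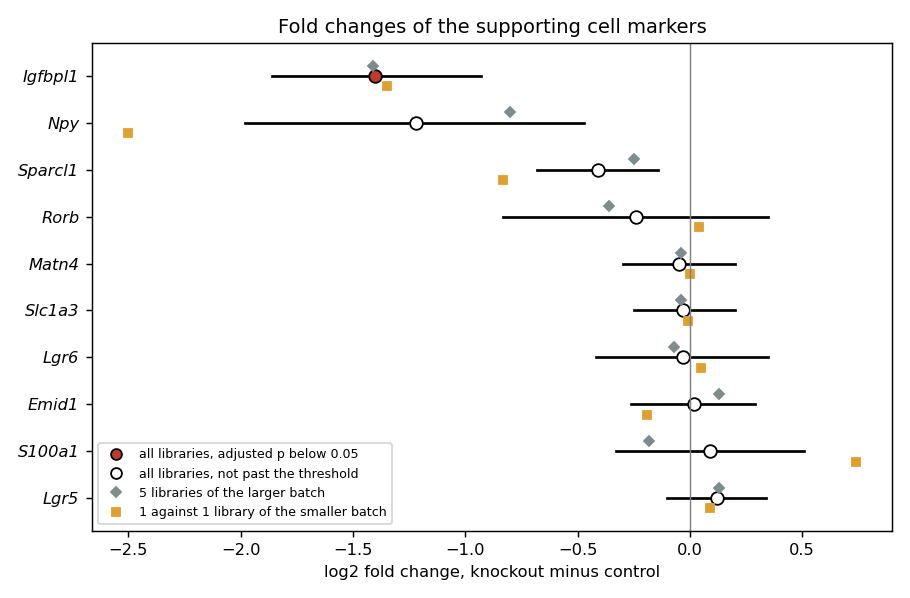
Log2 fold change of each member with its 95% interval over all 7 libraries (filled circle, past the threshold), beside the value in the 5 libraries of the larger batch (diamonds) and the log2 ratio of the 2 libraries of the smaller batch (squares). Igfbpl1 stays between -1.41 and -1.35 in both batches, while Npy lies at -0.80 and -2.50.

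Summed over the 10 members, the level was 962 to 1022 CPM in the knockout libraries and 1049 to 1256 CPM in the controls, with no overlap. Sparcl1 made up much of that sum. The other 7 members, without Igfbpl1, Npy and Sparcl1, summed to 529 to 599 CPM in knockout and 530 to 574 CPM in control. Those ranges overlapped. These 7 were picked because their groups overlapped in the same libraries. The overlap of their sum is therefore not a separate result. In bulk RNA, fewer cells of a type and less RNA per cell cannot be told apart.

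Among 23 other genes of supporting cells, 4 fell in the knockout and none rose by edgeR, which called 4.87% of all tested genes lower. The other tools gave 7 lower (DESeq2) and 3 lower (limma) and 0 higher, and at an unadjusted p below 0.05, 9 were lower and 0 higher. Over all genes, DESeq2 called 6.44% lower, and 11.8% were lower at an unadjusted p below 0.05. Limma called 697 of 17341 lower at a pseudocount of 0.1 FPKM and 800 at 1 FPKM. The median log2 fold change was -0.04. The nerve growth factor receptor gene Ngfr, used as a pillar cell marker and also made by glia, fell most (98.7 ± 14 to 30 ± 8.07 CPM; log2 fold change -1.72 ± 0.20; edgeR adjusted p = 0.00164). Lfng, which modifies Notch receptors, fell from 35.4 ± 3.56 to 21.3 ± 2.93 CPM (-0.73 ± 0.12; adjusted p = 0.00458). Ngfr and Lfng stayed called with any 1 library left out and in the batch of 5 alone.

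Heyl, a Notch target, fell from 47.9 ± 4.27 to 33.3 ± 4.67 CPM (-0.52 ± 0.12; edgeR adjusted p = 0.0194). It did not pass without control replicate 1 or 2 (adjusted p = 0.0601 and 0.0743) or in the batch of 5 alone (adjusted p = 0.0563). Sox2, the factor that specifies the prosensory field and is kept in supporting cells, fell from 106 ± 9.53 to 82 ± 9.43 CPM (-0.37 ± 0.10; edgeR adjusted p = 0.0477). This call held in 1 of the 7 fits with a library left out, that without knockout replicate 1, and the batch of 5 alone gave adjusted p = 0.195. The lateral regulator Prox1, made in pillar and Deiters cells, was lower in every knockout library and missed the threshold (27.8 ± 4.23 against 19.5 ± 3.12 CPM; -0.51 ± 0.15; adjusted p = 0.0635), but passed without control replicate 2 (adjusted p = 0.0474).

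For other genes of the same cells the test made no call. Fgfr3, the receptor needed for pillar cell fate, was at 75.3 ± 6.53 CPM in knockout and 67.7 ± 0.833 CPM in control (0.15 ± 0.08; 95% interval -0.03 to 0.34; edgeR adjusted p = 0.33). Hes5, a Notch target of supporting cells, was at 8.74 ± 3.19 and 5.5 ± 1.62 CPM (0.67 ± 0.31; -0.01 to 1.35; adjusted p = 0.246). In the batch of 5 alone Hes5 had a log2 fold change of 1.0 with the groups apart (adjusted p = 0.219). The intervals of both genes over all libraries hold 0, and that of Hes5 is wide. The following 3 genes were picked with their values in view, because every knockout library was below every control and the threshold was missed. Fabp7, a fatty acid binding protein also made by glia, was at 123 ± 54.8 CPM in knockout and 336 ± 8.69 CPM in control (-1.44 ± 0.40; edgeR adjusted p = 0.107). Kcnj10, a potassium channel, was at 6.83 ± 1.28 and 9.91 ± 1.43 CPM (-0.54 ± 0.19; adjusted p = 0.114), and Hey1, a Notch target, at 61.3 ± 9.79 and 79.7 ± 6.14 CPM (-0.38 ± 0.12; adjusted p = 0.0942).

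**Figure D4:**
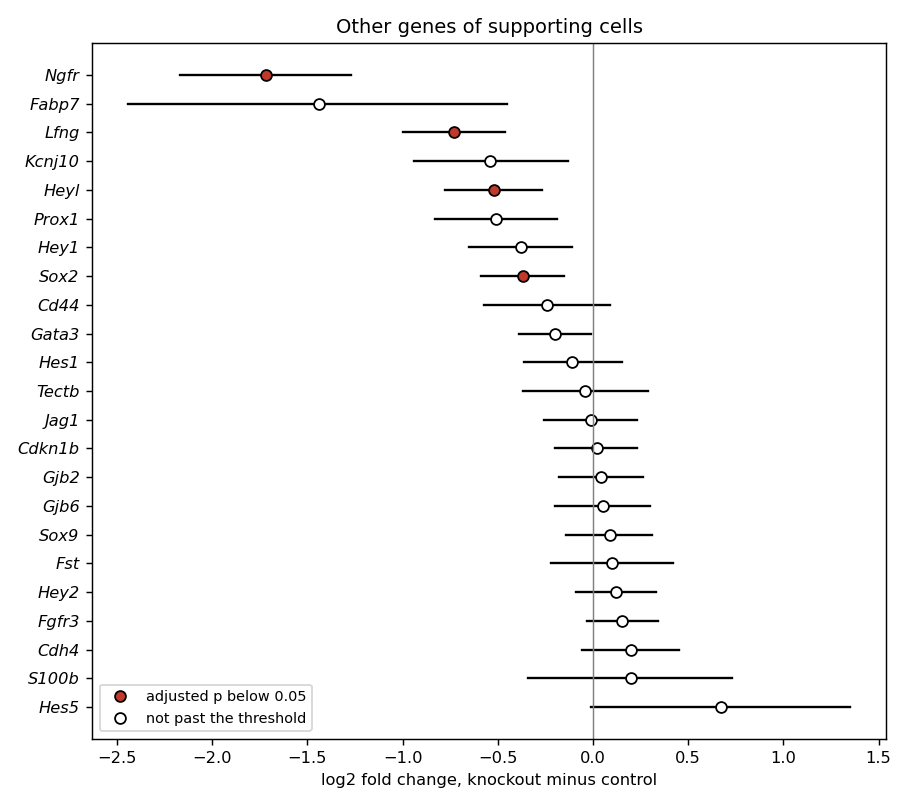
Log2 fold change and 95% interval of 23 other supporting cell genes over all 7 libraries (filled circle, adjusted p below 0.05). Ngfr, Lfng, Heyl and Sox2 passed the threshold, all to the left of 0, and the intervals of Fabp7, Kcnj10, Prox1, Hey1 and Gata3 lie below 0 without passing it.

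Markers of several other cell types also differed between the groups, some lower and some higher in the knockout. The counts by edgeR stand beside 4.87% of all tested genes called lower and 1.94% called higher. Of 18 neuron genes 11 fell and none rose (median log2 fold change -1.33), the one with the smallest p being Gap43 (104 ± 7.05 to 44.7 ± 7.52 CPM; edgeR adjusted p = 0.000752). Their summed level was 656 to 997 CPM in knockout and 1929 to 2228 CPM in control. Of 12 genes of Schwann and satellite glia 4 fell and none rose (median -0.79), led by Foxd3 (40.2 ± 2.52 to 12.7 ± 3.26 CPM; adjusted p = 0.000752), and their sum was 725 to 977 CPM in knockout and 1463 to 1621 CPM in control. In the batch of 5 alone, 6 neuron genes and 1 glial gene were lower, where 2.49% of all tested genes were. By DESeq2, 13 neuron genes and 7 glial genes were lower, where 6.44% of its genes were. Of the glial genes, Fabp7 and S100b are also in the supporting cell list. The part of neurons and glia in the lower levels of Igfbpl1, Npy, Sparcl1 and Ngfr was not tested.

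Hair cells, which arise from the same progenitors, had 2 of 12 genes higher and none lower (median 0.49), with a sum of 372 to 405 CPM in knockout and 320 to 346 CPM in control. Gfi1, a factor hair cells need, rose from 4.43 ± 1.31 to 8.9 ± 1.49 CPM (edgeR adjusted p = 0.0209; in the batch of 5 alone adjusted p = 0.153). The markers set as defining hair cells were not called. They were Atoh1 (log2 fold change 0.13; edgeR adjusted p = 0.621), Pou4f3 (0.12; adjusted p = 0.465) and Myo7a (0.49; adjusted p = 0.236). Of 10 epithelial genes 4 rose and none fell (median 0.33), led by Cldn3 (adjusted p = 0.00658), with sums of 3042 to 5092 CPM in knockout and 2893 to 3314 CPM in control. Of 10 mesenchyme genes 3 rose and none fell (median 0.20), led by Twist1 (adjusted p = 0.0122), with sums of 2533 to 3542 and 2542 to 2941 CPM. The sums of mesenchyme and epithelium overlapped between groups.

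Of 8 tested cartilage genes, Matn1 was the 1 that rose and none fell (median 0.76), with sums of 6617 to 9302 CPM in knockout and 5436 to 6744 CPM in control. In the batch of 5 alone the median was 0.35, with 2 higher and 0 lower. Acan and other genes of the cartilage list held a 0 in at least 1 library. Acan entered the median of all libraries at 1.15, with a wide 95% interval (-1.32 to 3.62). Of 10 macrophage genes 2 rose and none fell (median 0.44), led by Mrc1 (edgeR adjusted p = 0.0211), with sums of 116 to 153 and 93.9 to 112 CPM. Of 10 endothelial genes 0 were called by edgeR, DESeq2 or limma, and an unadjusted p below 0.05 was reached by 1 higher and 0 lower (median 0.11; sums of 466 to 565 and 439 to 511 CPM). None of these lists is one of supporting cells, and the part of their cells in the members' levels was not tested.

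**Figure D5:**
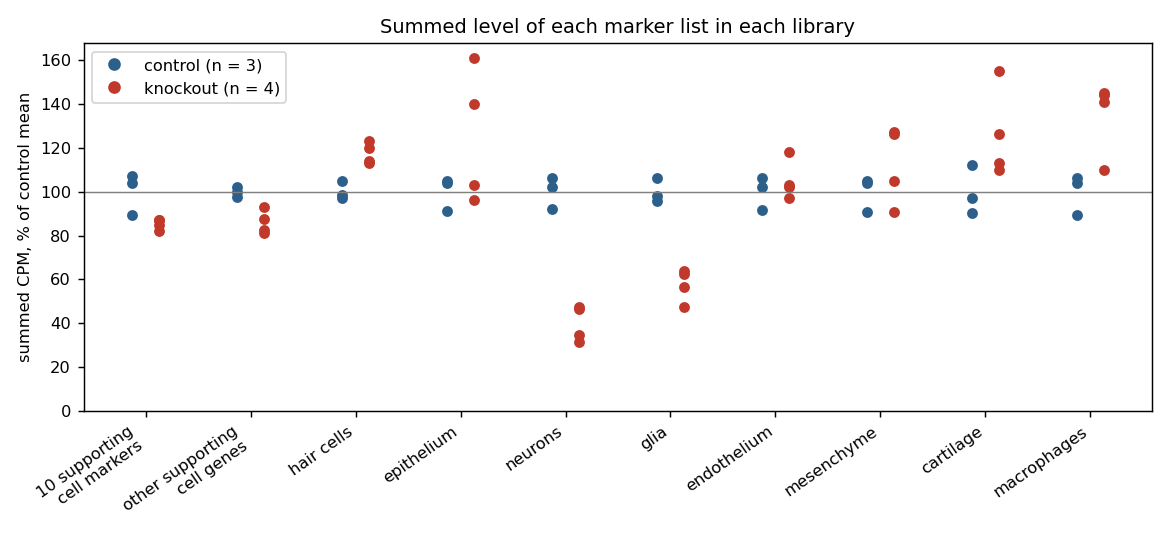
Summed CPM of each marker list in each library as a percentage of the control mean (blue, control; red, knockout). Neurons lie between 31.3% and 47.6% and glia between 47.5% and 64% in the knockout, the 10 supporting cell markers between 81.9% and 87%, and hair cell genes between 113% and 123%.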

How the data were processed

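RNA was measured in 7 libraries (4 Brg1 knockout, 3 control). Per the labels, the RNeasy Micro kit gave the RNA and the NEBNext Ultra RNA kit the libraries. Per the submitters' processing notes, the build was mm10 and the tools included featureCounts 1.5.0-p3, HISAT2 2.0.5, fastp, CASAVA 1.8 and DESeq2 1.20.0; the sources used here give neither their settings nor whether strand was counted. The deposited values are estimated counts, not raw counts: all values of 19838 genes seen in every library were multiples of 1 divided by 12 (tolerance 0.001), and in 100% of the 16580 genes that could tell, the libraries shared 1 fraction within each batch and complementary ones between batches. No label records this step. The deposited FPKM values carry it too. The design had assumed raw counts; its test was kept on values rounded to whole numbers. A constant added within a batch keeps count differences there but changes ratios, and the degree of freedom it may have used is not subtracted from the 5 residual ones, so p-values may be too small.

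The main test was edgeR's robust quasi-likelihood F-test (edgeR 4.0.16, R 4.3.3) without covariates, after filterByExpr and TMM scaling (Benjamini-Hochberg adjustment over 17341 genes); CPM are TMM-scaled, and standard errors come from the F statistic. Alternatives used DESeq2 1.42.0, limma 3.58.1 on log2(FPKM + 0.1) and log2(FPKM + 1), other scalings and filters, unrounded values, left-out libraries, and batch or replicate terms. The fit was checked on simulated data. No library repeats another: within a group and batch, chi-square divided by its degrees of freedom was 12.7 to 20.6. The tables and the description number as 4 the control whose title says 3. Coordinates are those of the tables and equal GENCODE M21 for all 10 members. The members, the gene lists, the rule for named genes (all members, called list genes, 5 set supporting genes and the lead gene of each other list) and the tests were chosen with earlier results of these data known. The sets of relatives were put together from gene families. Some genes of these lists are not reported here and were left out of their counts and sums.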

Additional observations from a re-analysis of the deposited data

Results flagged for a closer look

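Among the 4 knockout libraries, 7 of 77 genes described had 1 library far from the other 3, where chance gives about 1 in 20; none of the 10 supporting cell markers was among them. Npy4r was at 0.555 CPM in knockout replicate 3 (others 0.267 to 0.297; controls 0.982 to 1.22). Myo7a, a hair cell myosin, was at 13.6 CPM in knockout replicate 1 (others 23.8 to 24; controls 12.2 to 19.4). The other 5 fell on knockout replicate 4, which is in the smaller batch: Ccer2 at 73.4 CPM (others 54.1 to 56.4), Cldn3 at 192 CPM (others 159 to 164), Nefh at 1.66 CPM (others 4.33 to 4.75), Cdh5 at 73.5 CPM (others 82.4 to 84.2) and Acan at 12.7 CPM (others 4.55 to 5.86).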

How the results depend on the processing

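Igfbpl1 kept its direction and its call in all 19 alternatives (log2 fold change -1.57 to -1.14; adjusted p from 7.94e-09 to 0.0405). Npy (-1.47 to -0.80) and Sparcl1 (-0.54 to -0.25) kept their direction and passed in 4 and 3 alternatives; those not yet named were the replicate block by title number for Npy (-1.01; adjusted p = 0.0400) and every gene with a count for Sparcl1 (-0.42; adjusted p = 0.0479). Lgr5 and Rorb kept their sign and never passed. Signs near 0 turned, without a call, for S100a1 in the batch of 5 (-0.18) and the block by title number (-0.06), and for Lgr6 in the block by column number (0.04); with 1 library left out, S100a1 ranged from -0.08 to 0.26, Emid1 from -0.11 to 0.13, Lgr6 from -0.16 to 0.12 (0.00 and 0.03 without knockout replicates 1 and 3), Slc1a3 from -0.12 to 0.08 and Matn4 from -0.16 to 0.04. Members called lower numbered 3 by DESeq2, 2 with every gene with a count, 2 with the replicate block by title number and 1 to 2 with 1 library left out. Other supporting cell genes called lower numbered 7 by DESeq2, 2 in the batch of 5 and 2 to 4 with 1 library left out. No member and no other supporting cell gene was called higher in any of the 19. Over all genes, edgeR called 337 higher and 845 lower. The genes higher numbered 517 by DESeq2, 207 with batch as a term, 219 in the batch of 5 (438 lower) and 106 to 348 with 1 library left out (450 to 847 lower). The replicate block gave 180 higher by title number, and 74 higher and 536 lower by column number. Libraries with the same title number did not deviate together (r = -0.085, -0.149 and 0.051). Of 3 knockout libraries, 0 correlated best with the control of the same title number. With so few libraries, and with knockout and control replicate 3 in different batches, this cannot decide whether title numbers are pairs. Title numbers were not taken as pairs. For column number 4, r was -0.478. Those 2 libraries are the whole smaller batch, and the constant added to both alters how they deviate together. This r therefore cannot decide whether they are a pair, and the main test used no pairs. The cause of the shifts in the numbers of genes called was not tested.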
